A study of Mus musculus with 23 samples.

Results

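A set of 10 genes of fatty acid synthesis and of fat cells was followed in mouse lung on 23 arrays. The genes were chosen by symbol, and each was read from the array features (probe sets) annotated with that single symbol. Of the 10 genes, 9 had such a probe set, among 18193 named genes. Together they had 19 of 45037 probe sets. Plin1 was not analysed here. Where a gene had several probe sets it is described by the brightest, and all values are log2 signals.

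RNA came from the whole right lung of BALB/c (BALB) and C57BL/6 (B6) mice of both sexes. CF mice had the genotype CF-/- and controls CF+/+. Each combination of strain, sex and genotype had 3 arrays, except B6 CF males, which had 2. Age, the targeted allele and diet are not given in the labels. Whether each array stands for its own mouse is not stated either, so that p-values cover the array-to-array spread alone, which may be technical. The RNA is that of a mixed tissue, in which fewer cells of a type and less RNA per cell cannot be told apart. All arrays carried the lung's own markers. Sftpc, the surfactant protein of alveolar type 2 cells, read between 13.55 and 13.75, near the highest value on any array (13.82), and the type 2 marker Hc ran from 9.85 to 11.10. Hc was lower in BALB than in B6 controls (-0.83, adjusted p = 1.62e-09, limma). It was also lower in CF than in control lungs of B6 (-0.71, adjusted p = 6.26e-06). Cftr, the gene that the genotype names, was lower by 1.67 in CF than in control lungs of BALB (adjusted p = 6.44e-07, limma). In B6 the Cftr difference was -0.22 (adjusted p = 0.43), so the Cftr probe set checks the labels in BALB but not in B6.

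Fatty acids are made in the cytosol. Acly splits citrate to acetyl-CoA, Fasn assembles the saturated chain, Elovl6 lengthens it and Scd1 adds a double bond. In the lung, type 2 cells use this route for surfactant lipid, and in fat tissue it supplies stored triglyceride. Fat cells also secrete adiponectin (Adipoq), coat their droplets with Cidec and Plin1, and use Pck1, phosphoenolpyruvate carboxykinase, to make glycerol for triglyceride. Brown fat cells carry Ucp1, which uncouples respiration to release heat, and the droplet protein Cidea. Fat, brown fat included, lies near the lung root in the mouse chest. The question put to the data was whether the synthesis genes moved with markers of fat or with markers of the lung epithelium.

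The promoters of genes that moved together from array to array are shown first, as RefSeq windows of GRCm38.p6 from 250 bases before to 50 after the annotated start. Capitals mark matches on either strand to CCAAT, the letters of a common promoter box, or to the GC box letters GGGCGG. Synthesis genes come first, then 2 fat cell genes and a brown fat gene.
Acly, chr11:100527951-100528250, minus strand: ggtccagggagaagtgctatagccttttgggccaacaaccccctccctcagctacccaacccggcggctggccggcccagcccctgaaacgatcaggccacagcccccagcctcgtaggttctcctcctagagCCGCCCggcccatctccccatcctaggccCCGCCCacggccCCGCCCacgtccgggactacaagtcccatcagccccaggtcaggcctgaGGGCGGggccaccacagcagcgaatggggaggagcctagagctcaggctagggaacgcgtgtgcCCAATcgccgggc
Fasn, chr11:120824498-120824797, minus strand: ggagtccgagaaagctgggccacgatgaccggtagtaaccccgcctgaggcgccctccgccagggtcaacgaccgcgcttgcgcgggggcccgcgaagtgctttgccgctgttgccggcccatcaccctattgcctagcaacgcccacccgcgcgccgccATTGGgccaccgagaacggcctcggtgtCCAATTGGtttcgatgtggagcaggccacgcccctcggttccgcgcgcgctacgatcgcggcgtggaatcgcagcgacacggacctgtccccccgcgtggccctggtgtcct
Elovl6, chr3:129532136-129532435, plus strand: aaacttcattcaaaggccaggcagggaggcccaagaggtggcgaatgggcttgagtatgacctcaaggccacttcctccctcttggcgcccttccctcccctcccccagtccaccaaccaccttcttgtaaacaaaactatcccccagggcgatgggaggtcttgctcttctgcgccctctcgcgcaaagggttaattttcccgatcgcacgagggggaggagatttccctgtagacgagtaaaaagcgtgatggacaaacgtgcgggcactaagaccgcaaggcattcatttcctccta
Adipoq, chr16:23146286-23146585, plus strand: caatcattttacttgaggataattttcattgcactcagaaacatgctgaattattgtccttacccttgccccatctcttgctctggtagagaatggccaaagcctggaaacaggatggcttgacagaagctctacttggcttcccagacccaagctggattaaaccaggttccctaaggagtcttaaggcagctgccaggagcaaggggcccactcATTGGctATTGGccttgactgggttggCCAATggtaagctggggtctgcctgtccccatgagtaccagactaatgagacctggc
Pck1, chr2:173152823-173153122, plus strand: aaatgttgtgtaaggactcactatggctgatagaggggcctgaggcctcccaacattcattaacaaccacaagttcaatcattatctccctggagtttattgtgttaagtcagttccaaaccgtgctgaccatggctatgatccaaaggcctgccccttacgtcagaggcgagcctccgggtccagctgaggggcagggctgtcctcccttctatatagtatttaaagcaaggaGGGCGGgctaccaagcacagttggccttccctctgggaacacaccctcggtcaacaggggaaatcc
Ucp1, chr8:83290098-83290397, plus strand: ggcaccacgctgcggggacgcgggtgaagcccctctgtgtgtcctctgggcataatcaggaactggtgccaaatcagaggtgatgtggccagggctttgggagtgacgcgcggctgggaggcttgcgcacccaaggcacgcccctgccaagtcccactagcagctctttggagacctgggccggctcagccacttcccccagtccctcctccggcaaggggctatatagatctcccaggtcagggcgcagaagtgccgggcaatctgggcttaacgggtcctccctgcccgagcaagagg
The Fasn window held 3 matches to CCAAT, of which 2 on opposite strands share bases. The Adipoq window also held 3. Acly had 1 match to CCAAT and 4 to GGGCGG, and Pck1 had 1 to GGGCGG. No match to either was in the Elovl6 and Ucp1 windows. Among 32851 promoter windows of this length, 37.4% held CCAAT and 35.7% GGGCGG. The TATA box letters TATAAA had no match in the 9 windows of listed genes, against 13.6% of all windows. The E-box CACGTG also had none there (7.15% of all windows). The same held for TCACNCCAC, letters of a sterol regulatory element (1.24% of all windows). Matches are letters only, and the files hold no binding data. The 9 windows include 2 of Cidec and 1 of Plin1, which are not printed. Scd1 and Cidea are named only.

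Ucp1 and Cidea, the brown fat genes, had wide ranges over the arrays, and Acly and Fasn narrower ones. Ucp1 ran from 3.83 to 10.48 over the 23 arrays, a range of 6.65. Its standard deviation within groups, 1.68, exceeded that of 99.98% of all probe sets. Cidea ran from 4.13 to 8.79, Pck1 from 3.16 to 7.29 and Adipoq from 5.27 to 9.28. Cidec ran from 4.66 to 7.08, with a within-group standard deviation of 0.65. The synthesis gene Elovl6, at 5.29 to 7.92, spread about as much as Cidec, with a standard deviation of 0.63. Fasn kept to 9.37 to 10.65, Scd1 to 10.86 to 12.30, and Acly, the steadiest of the 9, to 9.26 to 10.24 with a within-group standard deviation of 0.19. Even so, this deviation exceeded that of 85.8% of all probe sets for Acly, and of 98.4% for Fasn and Scd1.

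**Figure D1:**
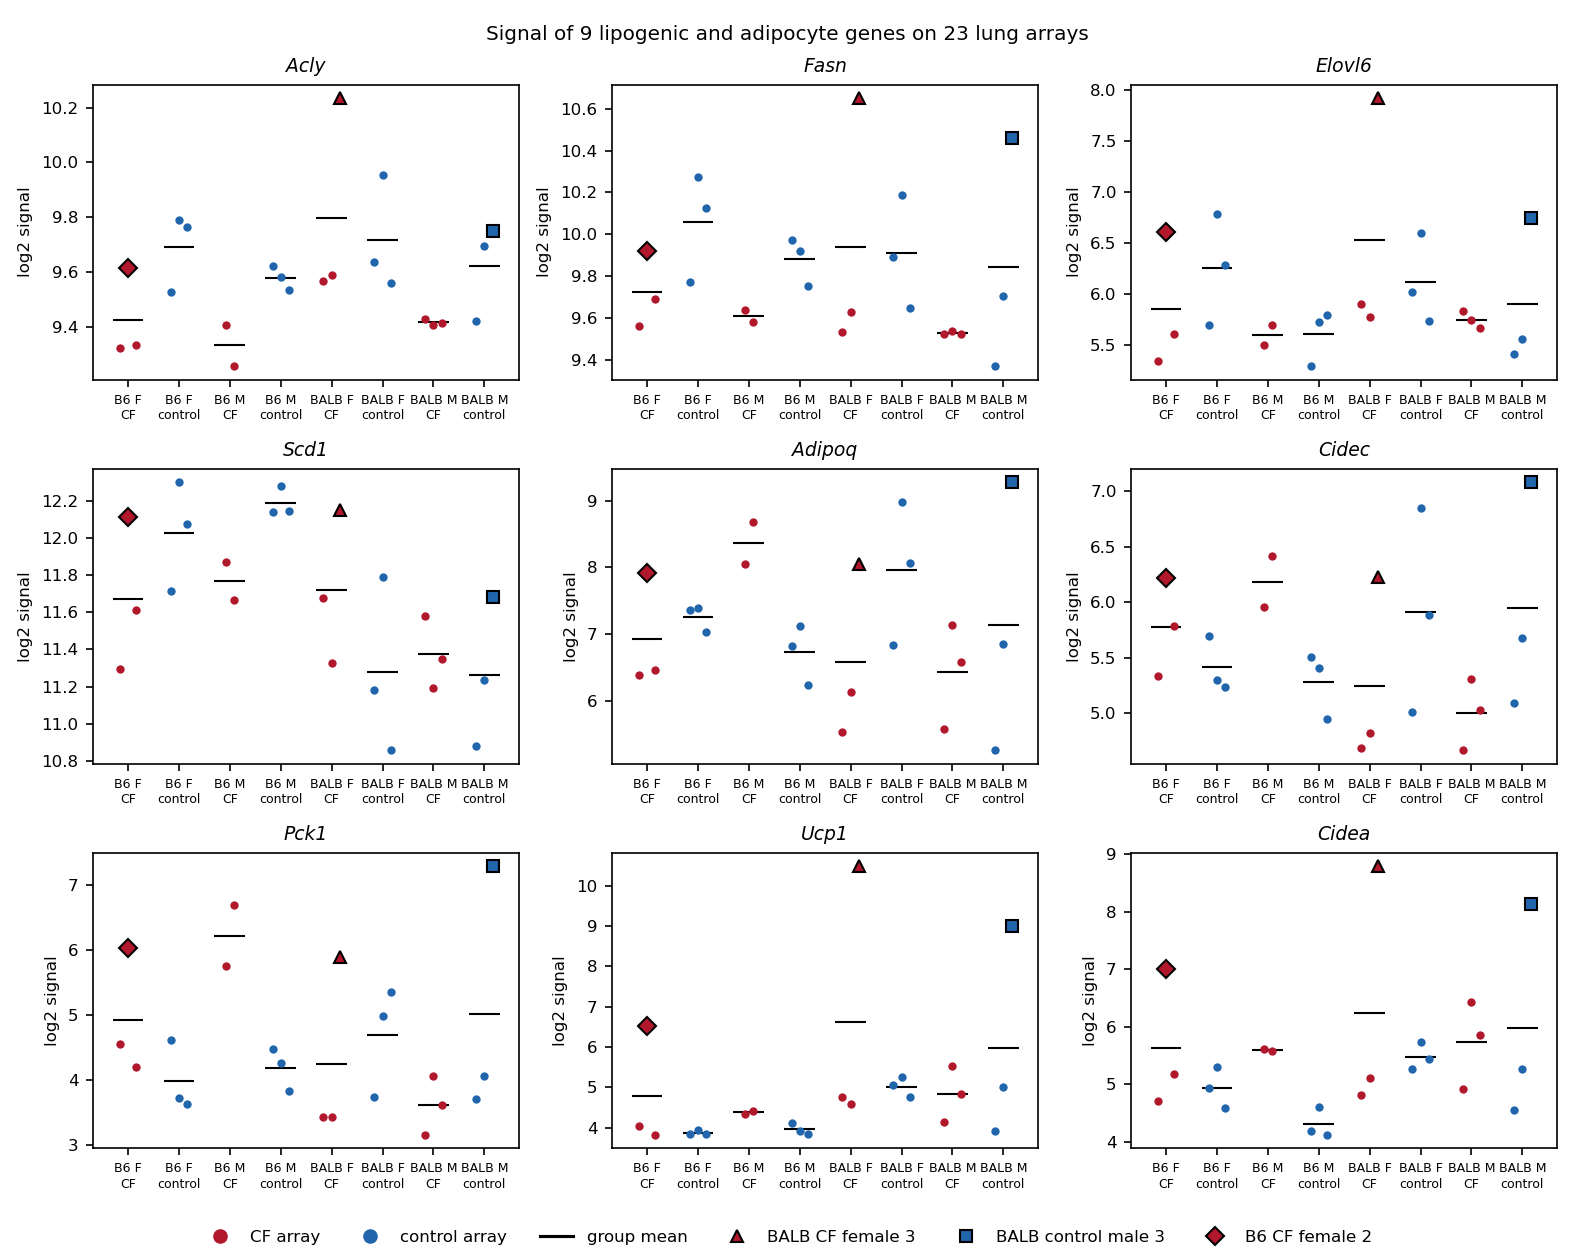
Log2 signal of the 9 measured genes (1 panel each, own vertical scale) on every array, by strain, sex (F, M) and genotype, with CF arrays in red, control arrays in blue and group means as bars. The 3 arrays drawn with outlined symbols hold the highest Ucp1 values, 10.48, 8.997 and 6.53, while the other 20 arrays do not pass 5.53.

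The high Ucp1 values came from 3 arrays of 3 different groups, named here because later results are given with and without them. Folds are set against the mean of the other 2 arrays of the group. On BALB CF female 3 Ucp1 read 10.48, against 4.77 and 4.58 on the other BALB CF females, a 56.1-fold difference in signal. On BALB control male 3 it read 8.997, against 3.92 and 4.996 on the other BALB control males, 23.2-fold higher. On B6 CF female 2 it read 6.53, against 4.03 and 3.83 on the other B6 CF females, 6.07-fold higher. These arrays were picked by their values, so the folds are descriptions with no test. One of the 3 is a control array.

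Cidea followed Ucp1 on the same 3 arrays. It read 8.79 on BALB CF female 3, 8.14 on BALB control male 3 and 7.0001 on B6 CF female 2, while the other 20 arrays had a median of 5.14 and a highest value of 6.43. Adipoq took another order. It was highest on BALB control male 3 (9.28), then on BALB control female 2 (8.98) and B6 CF male 2 (8.68), where Ucp1 read 5.24 on BALB control female 2 and 4.41 on B6 CF male 2. Cidec followed Adipoq, with 7.08, 6.84 and 6.41 on these 3 arrays. Pck1 read 7.29 on BALB control male 3 and 6.70 on B6 CF male 2, and then 6.02 and 5.89 on B6 CF female 2 and BALB CF female 3. High Adipoq, Cidec and Pck1 came with and without high Ucp1.

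The synthesis genes were higher on these arrays too, Elovl6 by a larger fold than the other 3. On BALB CF female 3, Elovl6 read 7.92, against 5.90 and 5.78 on the other BALB CF females, 4.25-fold higher. Fasn read 10.65 there, against 9.53 and 9.63, which is 2.10-fold higher. Acly and Scd1 stood 1.58-fold and 1.57-fold above the mean of the same 2 arrays. On BALB control male 3 Elovl6 was 2.39-fold, Fasn 1.90-fold, Scd1 1.54-fold and Acly 1.14-fold above the other BALB control males. On B6 CF female 2 Elovl6 was 2.20-fold, Scd1 1.58-fold, Fasn 1.23-fold and Acly 1.22-fold above the other B6 CF females. For comparison, Cidec was 2.78-fold, 3.25-fold and 1.58-fold higher on BALB CF female 3, BALB control male 3 and B6 CF female 2. Of the 9 genes, 5 were highest on BALB CF female 3 and 3 on BALB control male 3. Scd1 was highest on B6 control female 2, at 12.30, an array with Ucp1 at 3.95.

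Markers of other tissues on the 3 arrays were not alike. Skeletal muscle Acta1 read 11.65 on BALB CF female 3, against 9.28 and 9.97 on the other BALB CF females, where Ucp1 was low, and a median of 5.41 over all arrays. Of 12 skeletal muscle markers, 10 were highest on BALB CF female 3. Krt4, a keratin of squamous epithelium such as the oesophagus, read 12.46 on it, against 9.94 and 10.82 on the other BALB CF females. The highest Krt4, 12.60, was on B6 control male 3, another array with low Ucp1. On BALB control male 3 Acta1 was 5.84 and Krt4 4.04, but Rag1, the recombinase of developing lymphocytes in the thymus, read 6.85, against 3.05 and 3.00 on the other BALB control males. B6 CF female 2 had Acta1 at 5.17, Krt4 at 4.20 and Rag1 at 3.13. The mean of 7 brown fat markers other than the listed genes was 4.66 on BALB CF female 3, 4.06 on BALB control male 3 and 3.97 on B6 CF female 2, all above the highest of the other 20 arrays, 3.90. Of the 7 markers, 4 were highest on BALB CF female 3, among them Zic1, which read only 2.42 there. Otop1 read 5.37 on BALB CF female 3, 3.12 on BALB control male 3 and 2.98 on B6 CF female 2, each above the other arrays of its group. Its values on BALB control male 3 and B6 CF female 2 lay below the median probe set (4.59). Elovl3 read 5.92, 4.26 and 3.66 in the same order, and 3.66 lay within the other B6 CF females (3.54 and 3.70). Dio2 was highest on BALB CF female 1, Prdm16 on B6 control female 2 and Lhx8 on B6 CF female 2. The mean of the type 2 cell markers was 10.68, 10.51 and 10.70 on the 3 arrays in the same order, and 10.51 was the lowest of all 23 arrays. The part of these tissues in the members' values was not tested.

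**Figure D2:**
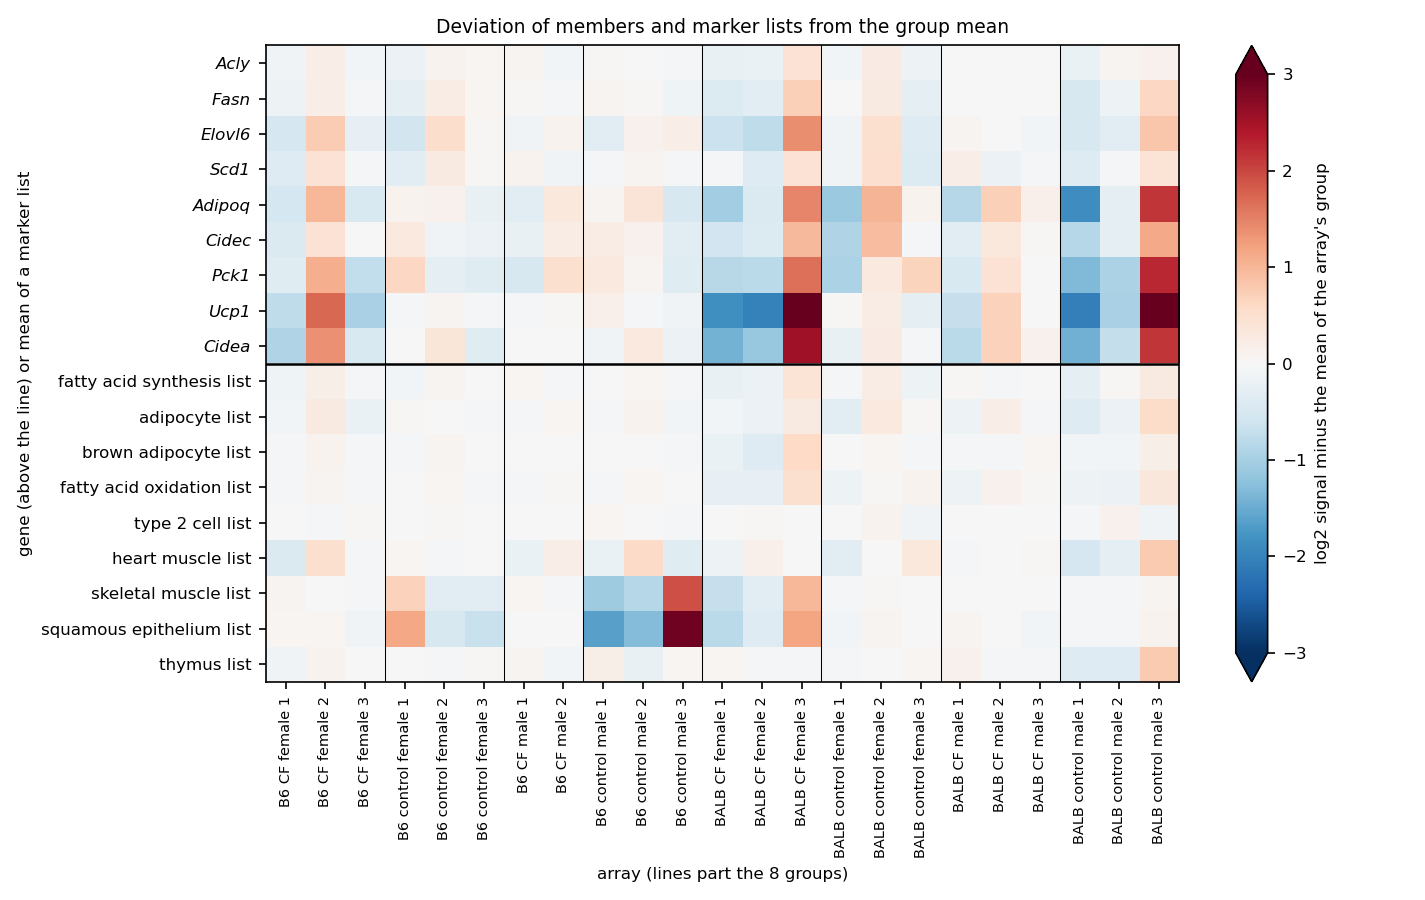
Log2 signal minus the mean of the array's own group, for the 9 genes (above the line) and the mean of 9 marker lists without the listed genes (below it), with 1 column per array in 8 groups. Red columns of Ucp1 and Cidea appear on BALB CF female 3, BALB control male 3 and B6 CF female 2, while the type 2 cell list stays near 0 on every array.

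The relation of each gene to marker lists was then measured across the 23 arrays, after the group mean had been taken off each value. A list's level is the mean log2 signal of its measured genes, with the 10 listed genes left out. In all, 45 relations (9 genes, 5 lists) were computed, with p from 100000 two-sided permutations within groups and Benjamini-Hochberg adjustment over the 45. Adipoq followed the adipocyte markers (11 of 14 measured, among them Retn, Plin4 and Car3) with r = 0.95 and rho = 0.94 (adjusted p = 0.0027 and 0.0031). Cidec had r = 0.92 (rho = 0.90, adjusted p = 0.0034 and 0.0031) and Pck1 r = 0.92 (rho = 0.92, adjusted p = 0.0035 and 0.0031). Cidea had r = 0.83 (rho = 0.88, adjusted p = 0.0034 and 0.0031). These 4 relations also passed without the 2 arrays farthest from the median of the list, BALB control male 3 and BALB control female 2, where r was 0.91, 0.85, 0.90 and 0.80.

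Of the synthesis genes, Fasn and Elovl6 passed with the adipocyte list. There Fasn had r = 0.73 (rho = 0.67, adjusted p = 0.038 and 0.039). Without the 2 farthest arrays this was r = 0.50 (adjusted p = 0.25). Elovl6 had r = 0.70 (rho = 0.65, adjusted p = 0.035 and 0.042), and 0.58 without them (adjusted p = 0.2). Acly (r = 0.61, and 0.57 without them) and Scd1 (r = 0.62, and 0.37) did not pass. Ucp1 passed with r = 0.80 (rho = 0.79, adjusted p = 0.01 and 0.023), and had 0.74 without the same arrays (adjusted p = 0.069). With the brown fat list (7 of 9 measured) all 4 synthesis genes passed. Most of that list was dim. Prdm16 averaged 6.96 over the arrays. Zic1 (2.26), Lhx8 (2.70), Otop1 (2.75), Elovl3 (3.78), Dio2 (4.16) and Slc27a2 (4.39) averaged below the median probe set (4.59). Elovl6 had r = 0.87, Fasn 0.84 and Acly 0.83 (rho = 0.86, 0.91 and 0.81, adjusted p of r = 0.01, 0.013 and 0.01). Scd1 had r = 0.64 (rho = 0.75, adjusted p = 0.01 and 0.0058). Ucp1 itself had r = 0.89 with that list (rho = 0.86, adjusted p = 0.03 and 0.013). For the brown fat list the farthest arrays were BALB CF female 3 and BALB control male 3, the 2 of highest Ucp1. None of the 8 relations to that list that passed did so without them, where r lay between 0.29 and 0.71. That r was 0.71 for Scd1 (adjusted p = 0.079), 0.68 for Elovl6, 0.59 for Acly and 0.54 for Fasn.

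With group means removed, no gene's relation to type 2 cell markers (14 of 15 measured) passed. With the means left in, as strain and sex then enter, Scd1 had r = 0.53 (adjusted p = 0.031). For the synthesis genes r lay between -0.16 and 0.20, with the lowest adjusted p at 0.58, and for the 9 genes together between -0.41 and 0.20. The type 2 list itself hardly moved: its level ran from 10.51 to 10.88 over all arrays, which leaves little spread for a relation to show. Nor did any relation to skeletal muscle markers pass, with r between 0.06 and 0.31. With heart muscle markers 3 fat cell genes passed: Adipoq r = 0.71, Pck1 0.70 and Cidec 0.63 (adjusted p = 0.025, 0.035 and 0.042). The 2 arrays farthest from the median of this list were B6 control male 2 and BALB CF female 1. Without them r was no lower, at 0.75, 0.78 and 0.68, but none passed (lowest adjusted p = 0.079).

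**Figure D3:**
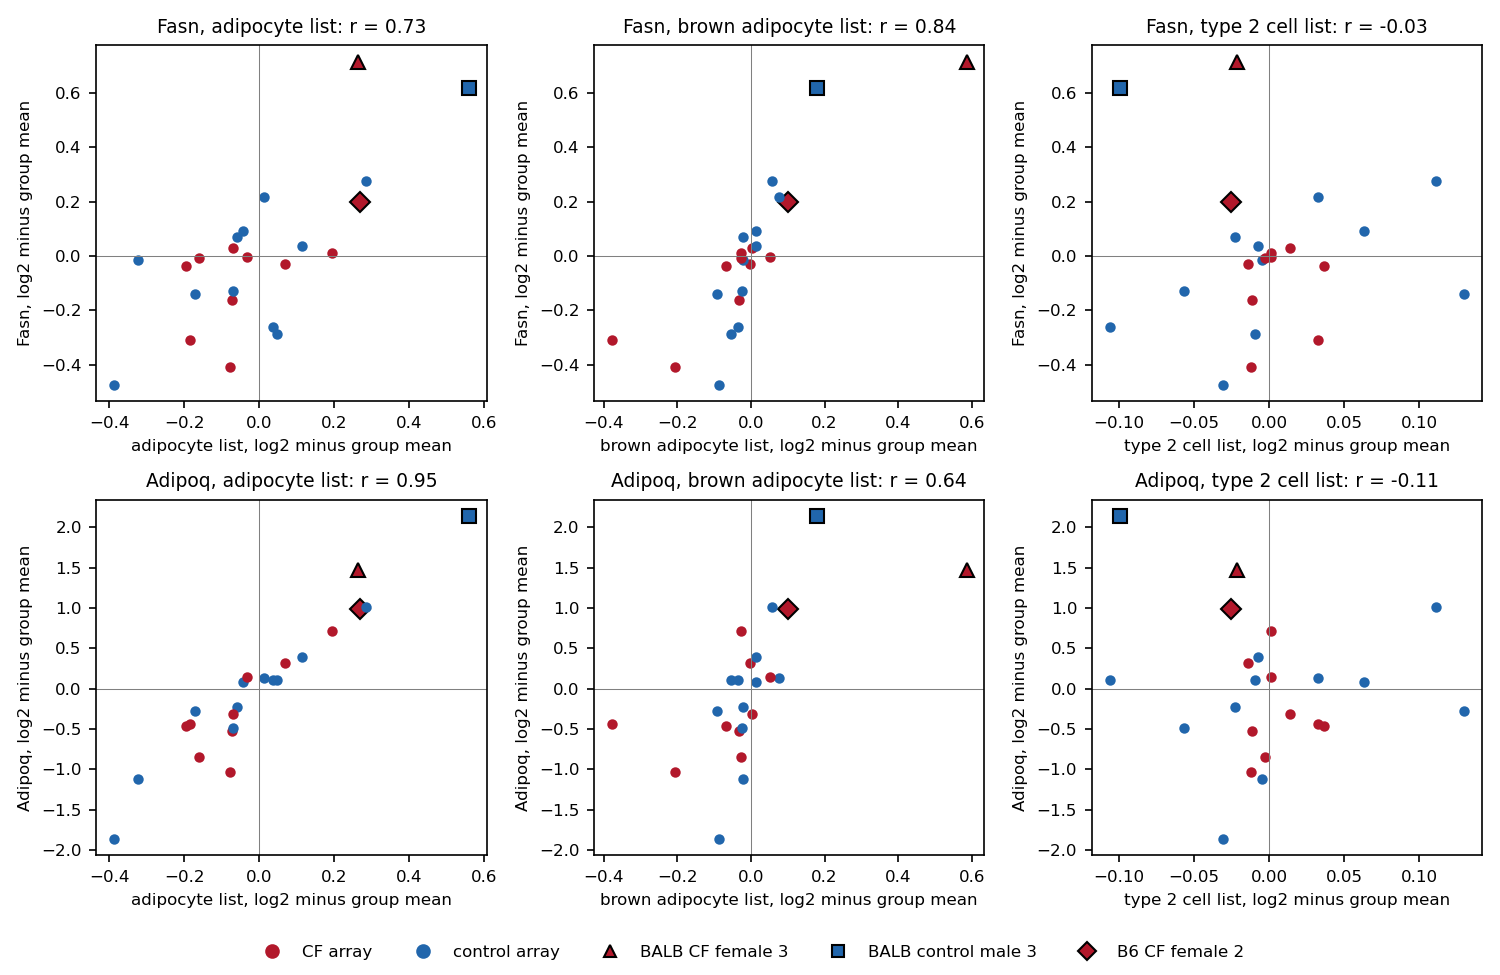
Fasn (top row) and Adipoq (bottom row) against the mean of adipocyte, brown adipocyte and type 2 cell markers, all as log2 signal minus the group mean, with 1 point per array. Adipoq follows the adipocyte list on all arrays (r = 0.95), Fasn follows it less closely (r = 0.73) and neither follows the type 2 list.

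Among themselves the genes fell into blocks, given as descriptions over arrays that share preparation and scale. Over 23 arrays the 6 pairs of synthesis genes had r between 0.83 and 0.91, and the 3 pairs of Adipoq, Cidec and Pck1 between 0.89 and 0.95. Ucp1 and Cidea had r = 0.98. Pairs of a synthesis gene with Adipoq, Cidec or Pck1 were looser, between 0.49 (Scd1 and Pck1) and 0.81 (Fasn and Adipoq). On the 20 arrays left without those 3 the synthesis pairs had r between 0.66 and 0.93, with Acly and Fasn at 0.93. For synthesis genes with Adipoq, Cidec or Pck1, r then lay between -0.34 and 0.47. The highest of these were Acly and Adipoq at 0.47 and Fasn and Adipoq at 0.44. The 3 arrays were picked for a fat cell gene, so values without them show no independent change of these pairs.

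**Figure D4:**
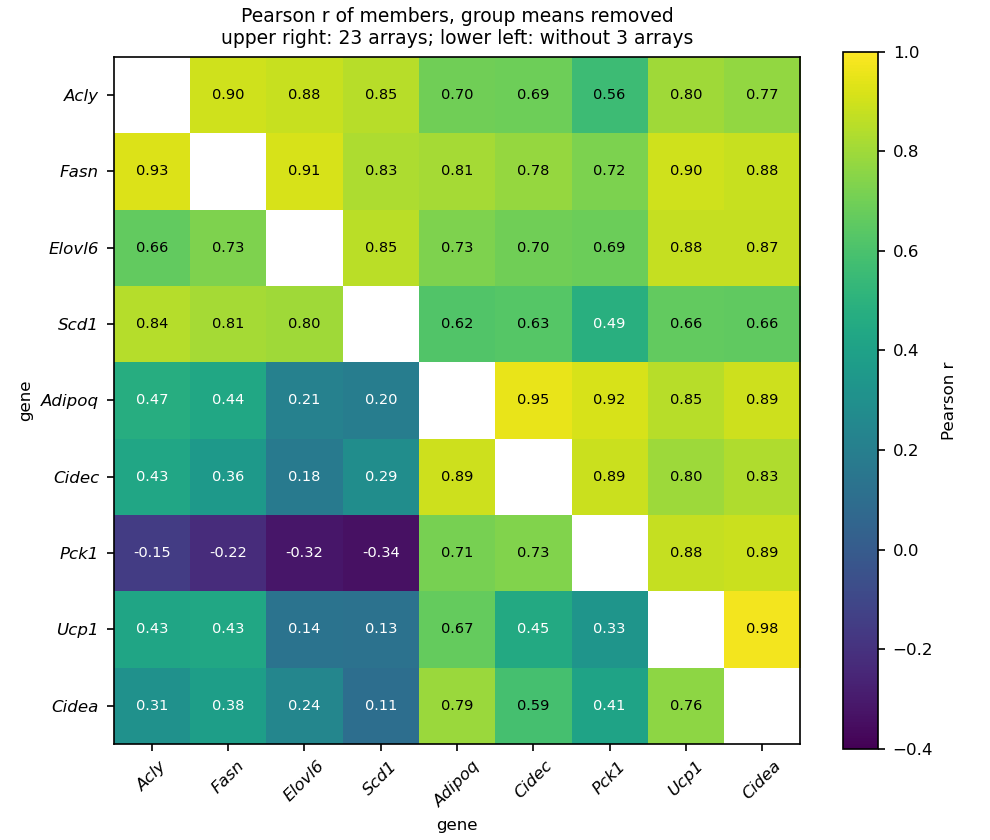
Pearson r of each pair of genes after removal of group means, over 23 arrays (upper right) and over 20 arrays without the 3 of highest Ucp1 (lower left). The 6 pairs of Acly, Fasn, Elovl6 and Scd1 keep values of 0.66 or more, while their pairs with Adipoq, Cidec and Pck1 lie at 0.47 or less in the lower left.

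Genes most like Adipoq and Fasn were ranked by r over the same deviations among 11633 genes whose mean was not below the median probe set. Closest to Adipoq was Fabp4 (0.98), a fatty acid carrier that fat shares with lung endothelium or macrophages. Cidec (0.95), Chpt1 (0.95), Plin4 (0.92), Car3 (0.92), Ephx2 (0.92), Prkar2b (0.91) and Dgat2 (0.91) came next. Each was highest on BALB control male 3. Closest to Fasn were Thrsp, a regulator of lipogenesis (0.96), Acaca, the acetyl-CoA carboxylase that makes malonyl-CoA (0.95), and Gpd1 (0.94). Nudt7 (0.93), Pnpla2 (0.93), Acadm (0.92), Tkt (0.92) and Agpat2 (0.92) followed. All of these but Pnpla2 were highest on BALB CF female 3. Elovl6, Acly and Scd1 ranked 10, 17 and 50 in likeness to Fasn, with Ucp1 at 15.

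CF and control lungs were compared with limma across all probe sets in 1 fit of the 8 groups, averaged over the sexes. In B6, none of the 9 genes passed an adjusted p of 0.05, where 5.43% of all genes did. The 4 synthesis genes had differences below 0, and the 5 fat cell genes above 0. Acly had 9.39 ± 0.14 in CF and 9.64 ± 0.11 in controls (SD, n = 5 and 6), a difference of -0.26 (SE 0.11, adjusted p = 0.205). Of the 5 CF arrays 4 lay below all controls: they read 9.32, 9.61, 9.33, 9.41 and 9.26, against a lowest control of 9.53. Fasn read 9.56, 9.92, 9.69, 9.64 and 9.58 in CF, against 9.75, 9.94 and 10.27 as the lowest, median and highest of B6 controls. Its difference was -0.30 (SE 0.18, adjusted p = 0.433). Scd1 differed by -0.39 (SE 0.18, adjusted p = 0.276) and Elovl6 by -0.20 (SE 0.33, adjusted p = 0.831). The groups overlapped in all 9 genes, and overlap was not counted over all genes.

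Pck1 had the largest difference in B6. It read 4.56, 6.02 and 4.20 in CF females and 5.74 and 6.70 in CF males, against 3.62, 4.04 and 4.61 as the lowest, median and highest of B6 controls. Of 5 CF arrays, 3 exceeded every control. The difference was 1.49 (SE 0.55, adjusted p = 0.14). On the 2 dimmer Pck1 probe sets it was 0.94 and -0.04. Cidec differed by 0.63 (SE 0.34, adjusted p = 0.353) and Adipoq by 0.65 (SE 0.56, adjusted p = 0.629). Of the brown fat genes, Cidea differed by 0.99 (SE 0.63, adjusted p = 0.459) and Ucp1 by 0.67 (SE 0.88, adjusted p = 0.78). Without the 3 arrays of highest Ucp1, which removes B6 CF female 2, the Pck1 difference was 1.21 (SE 0.28, adjusted p = 0.0185) and that of Acly -0.31 (SE 0.08, adjusted p = 0.0421). Pck1 and Acly moved with Ucp1 (r = 0.88 and 0.80), by which those arrays were picked. These 2 passes are therefore descriptions. Without BALB control male 3 alone Pck1 also passed, at the same difference with an SE of 0.42 (adjusted p = 0.0416). With the adipocyte list as a covariate Pck1 differed by 1.10 (adjusted p = 0.00883). In the fit of B6 arrays alone Pck1 (adjusted p = 0.0144) and Cidec (0.0390) passed. The adipocyte list averaged 5.50 ± 0.23 in CF and 5.43 ± 0.07 in controls of B6 (SD, n = 5 and 6), and its part in the Pck1 value was tested only by that covariate. Type 2 cell markers averaged 10.69 ± 0.06 in CF and 10.79 ± 0.07 in these controls. Of the 14 measured, 1 passed as higher in CF, Ctsh (0.39, adjusted p = 0.0427). Another 2 passed as lower, Hc (-0.71, adjusted p = 6.26e-06) and Cxcl15 (-0.25, adjusted p = 0.0444). Their part in the values of the synthesis genes was not tested.

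In BALB, none of the 9 genes passed either, where 5.53% of all genes did. Here Cidec, Adipoq and Pck1 read lower in CF. Cidec read 4.66, 4.92 and 6.23 as the lowest, median and highest of 6 CF arrays, against 5.01, 5.78 and 7.08 in controls. Its difference was -0.81 (SE 0.32, adjusted p = 0.164). Adipoq differed by -1.04 (SE 0.53, adjusted p = 0.309) and Pck1 by -0.93 (SE 0.52, adjusted p = 0.368). Of the synthesis genes Fasn differed by -0.14 (SE 0.17, adjusted p = 0.746), Acly by -0.06 and Elovl6 by 0.13. Scd1 differed by 0.28 (SE 0.17, adjusted p = 0.436), and by 0.68 on its other probe set (adjusted p = 0.191). Cidea differed by 0.26 (SE 0.59, adjusted p = 0.886). Ucp1 differed by 0.23 with an SE of 0.83. CF and control groups each held 1 of the arrays with high Ucp1, and without the 3 arrays the difference was 0.02 (SE 0.21, adjusted p = 0.985). As Ucp1 picked those arrays, that fit is no test of it.

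The difference between the strains' CF effects, BALB minus B6, was tested in the same fit. None of the 9 genes passed, where 2.23% of all genes did. Pck1 came nearest at -2.42 (SE 0.76, adjusted p = 0.0959), then Cidec at -1.44 (SE 0.46, adjusted p = 0.107), Scd1 at 0.66 (SE 0.25, adjusted p = 0.179) and Adipoq at -1.69 (SE 0.77, adjusted p = 0.289). Without the array BALB CF female 3, Pck1 (-2.83, adjusted p = 0.0347) and Cidec (-1.69, adjusted p = 0.0407) passed. Pck1 also passed without the 3 arrays of highest Ucp1, at -1.99 (SE 0.39, adjusted p = 0.0131). As Pck1 moved with Ucp1, by which those arrays were picked, that pass is a description. With the adipocyte list as a covariate, Scd1 passed at 0.94 (adjusted p = 0.0334).

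**Figure D5:**
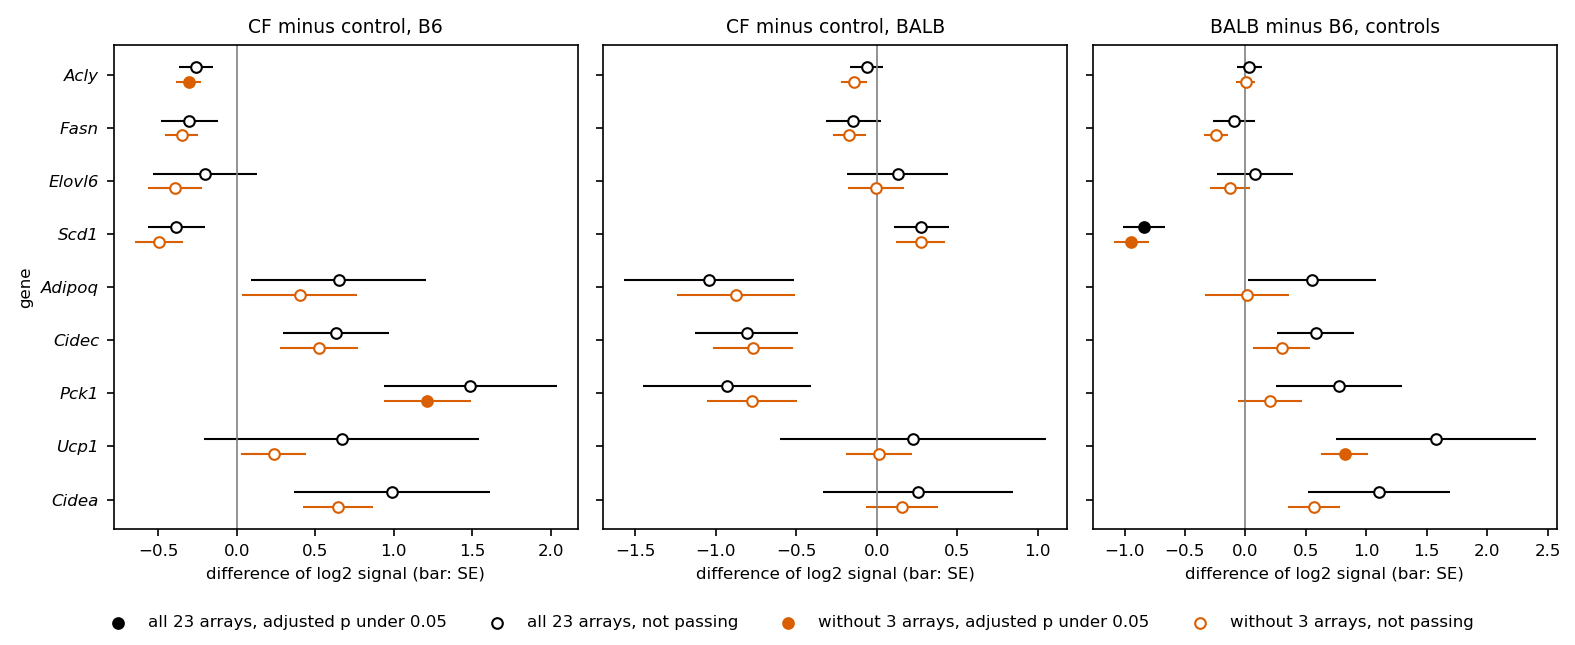
Differences of log2 signal (points) with standard errors (bars) for CF minus control in B6, CF minus control in BALB, and BALB minus B6 among controls, over all 23 arrays (black) and without the 3 arrays of highest Ucp1 (orange). Filled points passed an adjusted p of 0.05. Over all arrays only Scd1 between control strains is filled. The orange points of Ucp1 leave out arrays picked by Ucp1 itself and are no test of it. Filled orange points of genes that moved with Ucp1 are descriptions.

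Between control lungs of the strains, BALB minus B6, Scd1 was the gene of the 9 that passed, where 18.2% of all genes did. It averaged 11.27 ± 0.39 in BALB and 12.11 ± 0.21 in B6 controls (SD, n = 6 each). The BALB controls read 11.18, 11.79 and 10.86 in females and 10.88, 11.23 and 11.68 in males, against 11.71, 12.30 and 12.07 in B6 females and 12.14, 12.28 and 12.15 in B6 males. Of the 6 BALB arrays 5 lay below every B6 array. Scd1 was lower in BALB, with a log2 difference of -0.84 (SE 0.17, adjusted p = 0.00127), and -1.09 on its other probe set (adjusted p = 0.00921). It passed with each array left out in turn, between -0.97 and -0.73, and without the 3 arrays of highest Ucp1 at -0.94 (adjusted p = 0.000118). Type 2 cell markers read 10.64 ± 0.11 in BALB and 10.79 ± 0.07 in B6 controls (SD, n = 6 each). Of the 14 measured, 0 were higher and 3 lower in BALB past the threshold, and their part in the Scd1 difference was not tested.

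The synthesis genes beside Scd1 did not differ detectably between control strains. Fasn differed by -0.09 (SE 0.17), Acly by 0.03 (SE 0.10) and Elovl6 by 0.08 (SE 0.31), with adjusted p of 0.796 or more. The fat cell genes read higher in BALB but did not pass: Ucp1 by 1.58 (SE 0.83, adjusted p = 0.235), Cidea by 1.11 (SE 0.59, adjusted p = 0.244) and Pck1 by 0.77. Ucp1 on B6 controls lay between 3.84 and 4.12, and 5 of 6 BALB controls, at 4.75 to 8.997, lay above all of them. Its difference was smaller without the 3 arrays of highest Ucp1 and passed, at 0.82 (SE 0.20, adjusted p = 0.00685). Those arrays were picked by Ucp1 itself, which narrows its spread, so this pass is a description and no test of Ucp1.

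Sex made no difference that passed for any of the 9 genes. Between female and male controls 3.42% of all genes passed, and Elovl6 came nearest at 0.43 (SE 0.31, adjusted p = 0.545). Without the 3 arrays of highest Ucp1 it passed at 0.64 (adjusted p = 0.0461). Elovl6 moved with Ucp1 (r = 0.88), by which those arrays were picked, so this pass is a description. The sex difference of the CF effect passed for 2.05% of genes in B6 and 0.0275% in BALB. Its largest values among the 9 were -1.97 for Adipoq in B6 (SE 1.12, adjusted p = 0.461) and 2.72 for Ucp1 in BALB (SE 1.65, adjusted p = 0.621). Adipoq in B6 read 6.40, 7.92 and 6.47 in CF females and 8.05 and 8.68 in CF males, against 7.36, 7.39 and 7.03 in control females and 6.82, 7.13 and 6.24 in control males. Both CF males exceeded all controls of B6.

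Within a strain and sex, CF against control passed for 0.929% of genes in B6 females, 7.4% in B6 males, 1.51% in BALB females and 2.12% in BALB males, and for none of the 9 genes. Pck1 in B6 males came nearest, at 2.03 (SE 0.82, adjusted p = 0.161, n = 2 and 3, limma). In the fit of B6 arrays alone Pck1 passed there (adjusted p = 0.0197), as did Adipoq at 1.63 (0.0235) and Cidec at 0.90 (0.0415). Without the 3 arrays of highest Ucp1, Pck1 (adjusted p = 0.00425) and Cidea at 1.29 (adjusted p = 0.0203) passed in B6 males. Both genes moved with Ucp1, by which those arrays were picked, so these passes are descriptions. With the adipocyte list as a covariate, Ucp1 passed in BALB females at 2.98 (adjusted p = 0.0426), where BALB CF female 3 is 1 of 3 CF arrays.

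The wider lists were counted beside all 18193 genes. Of all genes, 714 were higher and 273 lower in CF lungs of B6 (median difference 0.01), and 522 were higher and 484 lower in CF lungs of BALB (median -0.01). Of 23 other genes of fatty acid and triglyceride synthesis, 1 was higher and 1 lower in CF lungs of B6 (median -0.05). Lpin1, a phosphatidate phosphatase, was higher by 0.33 (SE 0.09, adjusted p = 0.0345), and Fads2, a fatty acid desaturase, fell by 0.34 (SE 0.07, adjusted p = 0.00735). In BALB 0 were higher and 2 lower (median -0.02), Lpin1 (-0.40, adjusted p = 0.00712) and Elovl5, an elongase of polyunsaturated chains (-0.22, adjusted p = 0.0155). Of these, Lpin1 and Fads2 passed in B6 without the 3 arrays of highest Ucp1, and Lpin1 alone in BALB. The CF effect on Lpin1 differed between the strains (-0.73, SE 0.12, adjusted p = 0.0026). Of 11 adipocyte markers 0 passed in B6 (median 0.06) and 1 fell in BALB (median -0.06): Trarg1, a regulator of glucose transporter traffic, by 0.43 (adjusted p = 0.0215). Of 7 brown fat markers 0 passed in B6 (median -0.04) and 0 in BALB (median 0.05).

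Cholesterol synthesis shares its SREBP regulators with fatty acid synthesis. Of 12 measured genes of cholesterol synthesis and uptake, 0 were higher and 4 lower in CF lungs of B6, with a median difference of -0.30. These were Idi1 (-0.67, adjusted p = 0.00188), Sc5d (-0.36, adjusted p = 0.00457), Hmgcs1 (-0.34, adjusted p = 0.0160) and Msmo1 (-0.52, adjusted p = 0.0231), all enzymes of the pathway. Without the 3 arrays of highest Ucp1 the count was 3, as Hmgcs1 did not pass. The same 4 passed in B6 females, with Hmgcs1 at -0.67 and Msmo1 at -0.77, and 0 in B6 males. The sex difference of the CF effect in B6 itself passed for 1 of the 12, Hmgcs1 (-0.66, SE 0.16, adjusted p = 0.0382), and for 0 without the 3 arrays.

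In BALB 0 of the 12 cholesterol genes passed (median -0.09), and 1 without the 3 arrays, Cyp51 (-0.39, adjusted p = 0.0325). Within BALB females 1 was lower in CF, Hmgcs1 (-0.48, SE 0.11, adjusted p = 0.034), and 0 passed there without the 3 arrays. In BALB males 0 passed. Among controls, 5 of the 12 were higher in females than in males and 0 lower (median 0.32), where 456 of all genes were higher and 166 lower (median 0.0022). They included Hmgcs1 (0.47, adjusted p = 0.00168) and Dhcr7, the last step to cholesterol (0.46, adjusted p = 0.0293). Only these 2 passed without the 3 arrays. Of 11 fatty acid oxidation genes, 1 was higher in CF lungs of B6 (median 0.11), Cpt1a, the mitochondrial entry step (0.41, adjusted p = 0.0177). Without the 3 arrays Acadl, an acyl-CoA dehydrogenase, passed too (0.29, adjusted p = 0.0347). In BALB 0 of the 11 passed (median -0.01).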

How the data were processed

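Whole lung RNA was measured on 23 one-colour arrays in 8 groups. Per the labels, total RNA was biotin labelled. The deposited values, from 1.79 to 13.82 with array medians of 4.56 to 4.64, were taken as log2 from their range, and were already on a common scale. How the authors made them is not given in the sources used here, and the number of arrays limits precision.

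After 64 control probe sets were left out, 45037 were fitted with limma 3.58.1 (R 4.3.3, 1 mean per group, eBayes). Benjamini-Hochberg adjustment ran within each comparison, with 0.05 as threshold. By the platform annotation 1 gene symbol stood beside 34945 probe sets, several beside 932 and none beside 9160. A gene is represented by its brightest probe set, and other probe sets of the listed genes were an alternative.

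All listed genes are described. Of the wider lists, genes that passed are named, and likeness is given for Adipoq and Fasn as the top 8 genes. The members and lists were chosen with earlier results of these data known. Alternatives were quantile normalization, median centring, a filter on dim probe sets, trended and robust moderation, array weights, a fit of the compared groups alone, the replicate number as a block, the adipocyte list as a covariate and each array left out. Leaving out the 3 arrays of highest Ucp1 was chosen after seeing the data. It takes out high values of Ucp1 and of genes that move with it, so their p-values in that fit are descriptions. Tested on simulated data, the fit recovered 76% of differences of 0.5 in B6 and 87% in BALB (98% and 99% at 1.0). The simulation changed probe sets drawn at random, with normal noise. The listed genes spread more within groups than most probe sets, so these rates do not hold for them. The titles give replicate numbers, and whether these pair the samples is not stated.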

Additional observations from a re-analysis of the deposited data

Results flagged for a closer look

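Arrays were compared within each strain and genotype (5 or 6 arrays, both sexes). Of 36 combinations of gene and group, 9 held an array far from the others. A single combination does so by chance in about 1 in 20, but the genes move together, so the count cannot be set against that rate. All 9 lay on the 3 arrays of highest Ucp1. On BALB CF female 3 this held for 5 genes: Ucp1 at 10.48, Fasn at 10.65, Elovl6 at 7.92, Acly at 10.24 and Pck1 at 5.89. On B6 CF female 2 it held for Ucp1 at 6.53 and Elovl6 at 6.61. On BALB control male 3 it held for Ucp1 at 8.997 and Cidea at 8.14. All 9 values were the highest of their group. B6 controls held none.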

How the results depend on the processing

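For the 9 genes in 11 comparisons, 3251 of 3269 alternative values kept their direction, where called, and their side of the threshold. The other 18 newly passed, and 0 calls were lost or reversed. Only 1 of the 99 pairs of gene and comparison was called in the reported fit, Scd1 between control strains. Most of the 3251 values therefore passed in neither setting. The 18 are given with their genes in the report. For 123 values that passed in neither setting the sign differed. The replicate block changed no call of these genes. Same-numbered arrays had a median correlation of 0.002 over 77 pairs (different numbers -0.004), and the block gave 2081 probe sets for CF in B6, against 2121 without it, and 2173 against 2217 for CF in BALB.

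Counts over all probe sets moved more, and the cause was not tested. With array weights CF in BALB gave 3824 (2217 in the reported fit), the strain difference of the CF effect 2043 (1142), female against male controls 3666 (1094), and the sex difference of the CF effect 1488 (788) in B6 and 132 (8) in BALB. The weights also gave 1470 (367) in B6 females, 1570 (534) in BALB females and 2097 (867) in BALB males. In fits of the compared groups alone, where fewer samples set the spread, CF in BALB gave 1406, BALB females 260, BALB males 493 and the sex difference in BALB 24. That difference gave 13 with trended and robust moderation. BALB females gave 814 after the filter on dim probe sets, 1135 with the adipocyte covariate and 102 without the 3 arrays of highest Ucp1. Of 45 relations to marker lists 18 passed, 4 without the 2 farthest arrays and 16 with group means left in.

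With each array left out in turn, CF in B6 gave 852 to 2329 and CF in BALB 1368 to 2851. The strain difference gave 591 to 1568, BALB against B6 controls (7016) 5898 to 7309, and female against male controls 477 to 1772. The sex difference gave 245 to 1183 in B6 and 0 to 100 in BALB. Within sexes the ranges were 84 to 747 in B6 females, 760 to 3113 in B6 males (2809), 39 to 1414 in BALB females and 323 to 1060 in BALB males. The lowest count for CF in B6 came without B6 CF male 1, 1403 without B6 CF female 3 and 1329 without B6 control female 3. For CF in BALB, 1368 came without BALB control female 1 and 1371 without BALB control male 1. For the strain difference, 591 came without B6 CF male 1, 748 without B6 control female 2 and 746 without B6 control female 3. In the comparisons of the sexes and within a sex, most arrays of the groups compared moved the count by over 1.5 times when left out.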

Other observations

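The genes whose deviations from the group mean were most like those of Ucp1 were looked up after the values had been seen, and are given as a description over the 23 arrays. They were Gpd1 (r = 0.98), Cidea (0.98), Cox8b, a respiratory chain subunit of muscle and brown fat (0.97), and Hadhb of fatty acid oxidation (0.96).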
